A study of Homo sapiens with 2 samples.

Results

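The genes described here encode the vacuolar proton pump of the lysosome, the cathepsins and the LAMP membrane glycoproteins. They were chosen by name: every name in the deposited tables that begins with ATP6V0, ATP6V1, ATP6AP or LAMP followed by a digit, or that is CTS with a letter, leaving out CTSG. This gave 45 of 43270 genes and transcripts, read by 57 of 58201 probes, and 36 of the 45 had a single probe. The names include 3 antisense transcripts, ATP6V0E2-AS1, ATP6V1B1-AS1 and LAMP5-AS1, which are not lysosomal proteins and are given apart.

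RNA was taken from HL60, an established acute myeloid leukaemia line of promyelocytic character labelled as untreated, and from R-HL60, which was derived from HL60 by prolonged exposure to rising doses of cytarabine and is labelled as treated with that drug. Cytarabine is a deoxycytidine analogue used against this leukaemia. The sources used here do not say whether the drug was present when RNA was taken, or whether R-HL60 is a clone or a mixed population. Each line was measured on 1 Agilent one-colour array, so no difference has a test or an error between cultures, and the line and its array cannot be told apart.

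The vacuolar proton pump is a rotary machine. Its V1 sector, in the cytosol, hydrolyses ATP and turns a ring of the membrane-bound V0 sector, which carries protons into lysosomes, endosomes and granules. The low pH activates the cathepsins, proteases of the lysosome lumen, while LAMP glycoproteins line the inner face of the lysosome membrane. Transcription factors of the MiT/TFE family (TFEB, TFE3, MITF and TFEC) bind an E-box element in the promoters of many lysosomal genes, and myeloid cells also use cathepsins to process granule proteins and antigens.

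The promoters of members that hold this element are shown because the family member MITF was much lower on the R-HL60 array (its values are given further down). A link between MITF and the signals of these members was not tested. A RefSeq promoter table of GRCh38.p14, with 250 bases before and 50 bases after each gene's start, held 30 of the 45 members. The letters searched were TCACGTGA and its core CACGTG. Both are palindromes, so each search reads both strands, and every TCACGTGA also counts as CACGTG. TCACGTGA was found in 4 of the 30 promoters (13.3%), against 0.98% of all 35116 promoters of this length, and CACGTG in 8 of the 30 (26.7%) against 7.26%. The 35116 were counted by promoter, whether or not the gene was measured here, and the members by gene. Because the element is known from lysosomal genes, a higher share among members says nothing about these arrays. A match is a description of the letters and does not show binding. The stretches printed are the 250 bases before the start, in GRCh38.p14: ATP6V0D1 at chr16:67481158-67481407 (minus strand), ATP6V1G1 at chr9:114587519-114587768 (plus strand), CTSA at chr20:45891085-45891334 (plus strand) and LAMP1 at chr13:113296989-113297238 (plus strand). Capitals mark TCACGTGA and CACGTG.
ATP6V0D1: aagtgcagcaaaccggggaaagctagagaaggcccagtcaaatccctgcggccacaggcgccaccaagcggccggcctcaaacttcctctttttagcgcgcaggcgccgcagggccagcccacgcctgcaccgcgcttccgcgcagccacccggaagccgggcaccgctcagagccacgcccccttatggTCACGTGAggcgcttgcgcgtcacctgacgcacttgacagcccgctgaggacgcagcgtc
ATP6V1G1: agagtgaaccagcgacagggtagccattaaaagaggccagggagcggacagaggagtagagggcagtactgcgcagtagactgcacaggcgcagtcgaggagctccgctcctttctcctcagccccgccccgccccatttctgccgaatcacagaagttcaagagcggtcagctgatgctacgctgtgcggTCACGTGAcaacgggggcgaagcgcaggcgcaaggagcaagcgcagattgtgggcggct
CTSA: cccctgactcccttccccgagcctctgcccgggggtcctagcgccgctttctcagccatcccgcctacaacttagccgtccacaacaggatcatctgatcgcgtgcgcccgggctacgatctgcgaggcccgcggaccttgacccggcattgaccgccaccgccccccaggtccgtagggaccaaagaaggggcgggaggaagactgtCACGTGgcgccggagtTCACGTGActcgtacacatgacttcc
LAMP1: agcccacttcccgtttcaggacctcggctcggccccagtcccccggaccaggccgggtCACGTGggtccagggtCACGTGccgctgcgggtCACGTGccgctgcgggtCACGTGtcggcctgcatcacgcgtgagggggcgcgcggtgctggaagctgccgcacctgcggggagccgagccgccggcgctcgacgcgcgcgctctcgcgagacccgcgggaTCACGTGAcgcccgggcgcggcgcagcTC
The core CACGTG began 59 bases before the gene's start in ATP6V0D1, 58 bases before it in ATP6V1G1, and 42 and 25 bases before it in CTSA. LAMP1 held 6 copies, of which the last spans the gene's start, so that only its first letters are printed. The other members with CACGTG but without TCACGTGA were ATP6V0B, ATP6V0E2, CTSD and CTSF.

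The promoters of the members with the largest measured differences, CTSH and LAMP5, are set beside them. They lie at chr15:78945047-78945296 (minus strand) and chr20:9514340-9514589 (plus strand), and neither holds CACGTG in its 300 bases, so no letters are in capitals. Members not in the promoter table were ATP6AP1L, ATP6V0D2, ATP6V0E1, ATP6V1A, ATP6V1B2, ATP6V1C1, ATP6V1E2, ATP6V1H, CTSB, CTSK, CTSO, CTSS, CTSW, LAMP2 and LAMP3.
CTSH: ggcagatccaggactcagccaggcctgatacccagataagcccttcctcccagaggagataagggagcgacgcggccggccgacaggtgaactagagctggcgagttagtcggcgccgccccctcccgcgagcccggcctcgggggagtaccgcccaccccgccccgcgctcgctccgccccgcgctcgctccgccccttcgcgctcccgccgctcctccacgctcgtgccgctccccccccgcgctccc
LAMP5: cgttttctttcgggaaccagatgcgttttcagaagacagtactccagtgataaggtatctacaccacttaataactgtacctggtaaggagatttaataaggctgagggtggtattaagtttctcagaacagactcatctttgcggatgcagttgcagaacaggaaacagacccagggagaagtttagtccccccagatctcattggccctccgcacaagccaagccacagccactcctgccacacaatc

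The proton pump, cathepsin and LAMP genes had nearly the same signals in R-HL60 as in HL60, apart from CTSH (cathepsin H), which was 1.78-fold higher, and LAMP5, which was 1.35-fold lower. Signals are linear scanner intensities, differences are log2 of R-HL60 over HL60 after each array's 75th percentile was subtracted, and a gene counts as measured on an array when its signal lies above that array's median, called the floor here. Of the 45 members, 34 were above the floor on both arrays, CTSW on the R-HL60 array only, ATP6V1B1-AS1 on the HL60 array only, and 9 on neither. None of these 36 members reached 2-fold, where 1.08% of all 23531 genes measured on 1 or both arrays did. CTSH alone was at least 1.5-fold higher, 1 of 36 against 3.53% of all genes, and no member was at least 1.5-fold lower, against 1.38%. Both shares of members are near those of all genes.

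The median log2 difference of the 34 members measured on both arrays was -0.01, beside -0.03 over all 21838 such genes. Of the 34, 14 had a difference above 0 and 20 below it. The SD over members was 0.23, against 0.29 over all genes. Within 1.3-fold, a band chosen after the values were seen, lay 32 of the 34 members (94.1%) and 88.3% of all genes. The members were mostly bright, with 17 of the 34 in the brightest of 5 classes of signal. In that class 16 of the 17 members and 96.9% of all genes lay within 1.3-fold. In the next class it was 5 of 6 members and 94% of all genes. In the dimmer classes every measured member lay within it, beside 78.5% to 89.1% of all genes. These counts are too small to set members apart from genes of like brightness.

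**Figure D1:**
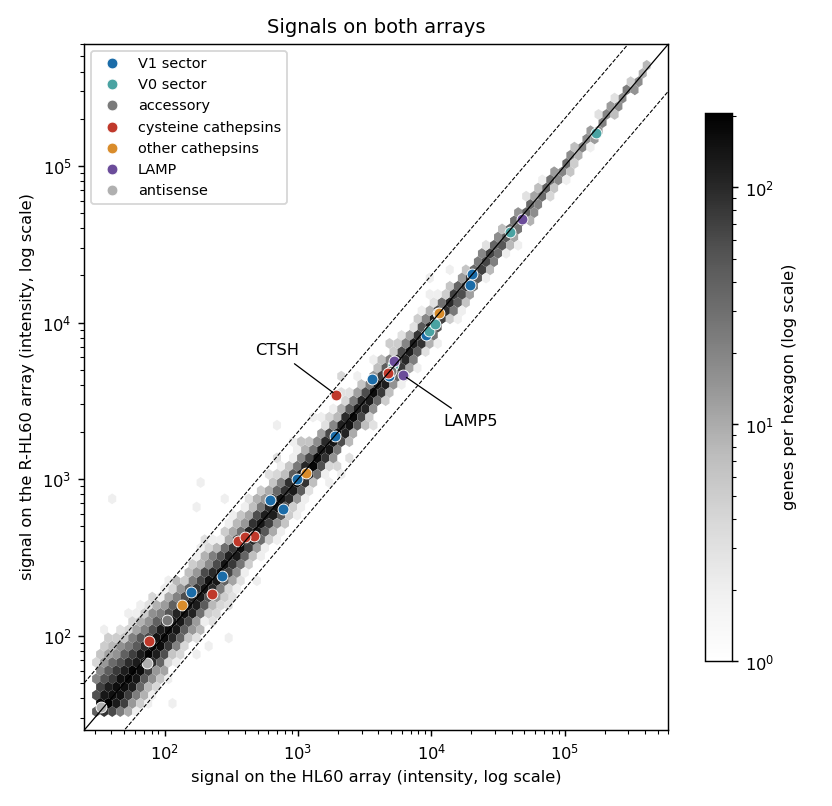
Signal of each gene on the R-HL60 array (vertical axis) against the HL60 array (horizontal axis), in linear intensity units on log axes. Grey hexagons count all 21838 genes above the floor on both arrays, coloured points are the 34 members by role, the solid line marks equal signals and the dashed lines a 2-fold difference in raw signal. All members lie between the dashed lines, with CTSH highest above and LAMP5 farthest below the diagonal.

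The only repeated measurement within an array is that of different probes for a gene. The SD between such probes, over all genes with several measured probes, ran from 0.12 in the brightest class of signal to 0.28 in the dimmest on the log2 scale; it leaves out the spread between cultures and arrays. A difference above 2 such SDs was seen for 4 of the 34 members, namely CTSH, LAMP5, ATP6V1B2 and ATP6V1D, and for 12.1% of all genes measured on both arrays.

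**Figure D2:**
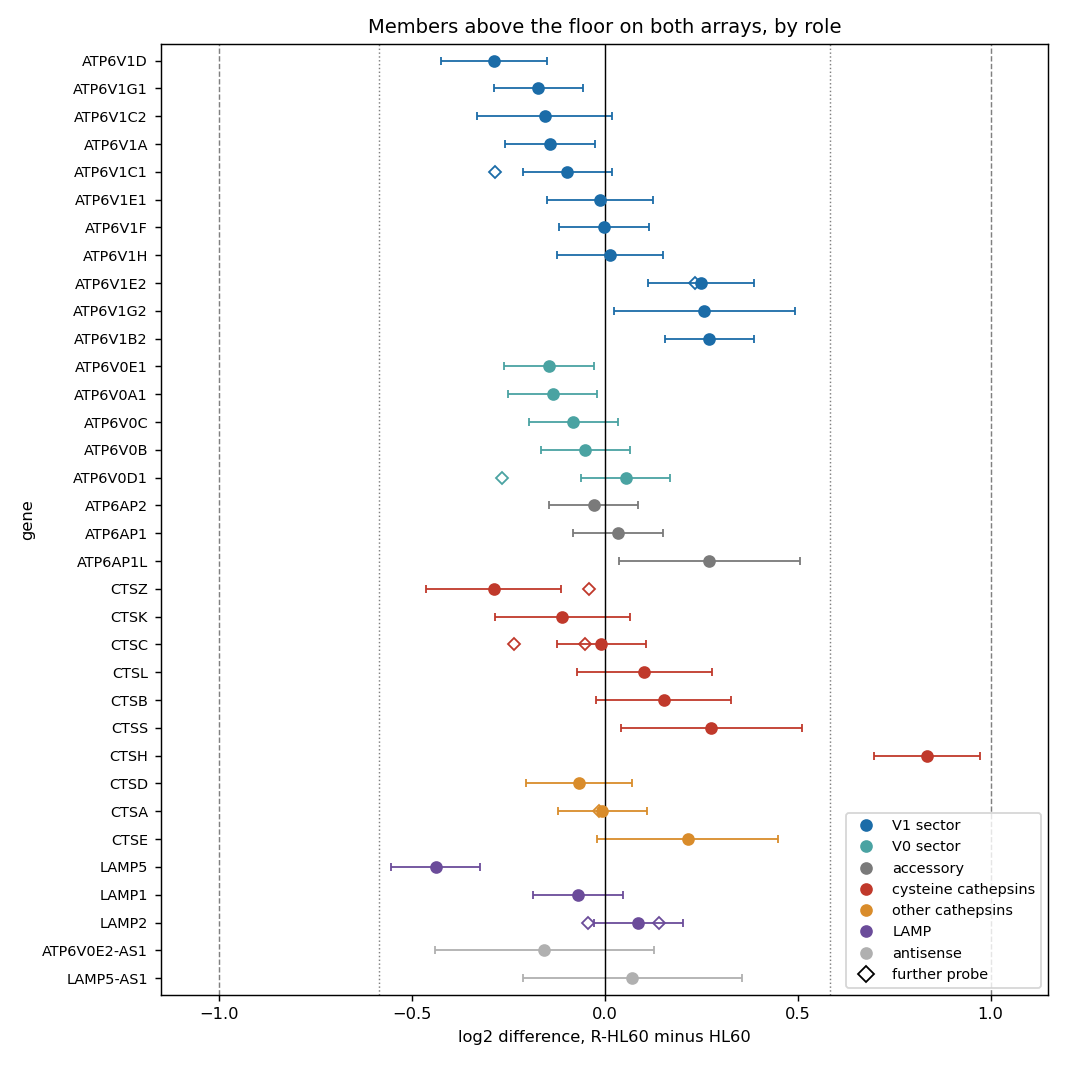
Log2 difference (R-HL60 minus HL60, horizontal axis) of the 34 members above the floor on both arrays, grouped by role. Filled points are the brightest probe, bars are 1 probe-to-probe SD of the gene's class of signal, open diamonds are further measured probes, and dotted and dashed lines mark 1.5-fold and 2-fold; CTSH at 0.84 is the only point beyond a dotted line.

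Among the V1 sector genes, 11 of 13 were measured on both arrays, with a median log2 difference of -0.01 and a range from -0.29 to 0.27. ATP6V1A encodes the catalytic A subunit and went from 9131 in HL60 to 8327 in R-HL60 (log2 difference -0.14). ATP6V1B2, the B subunit made in most tissues, went from 3576 to 4341, a difference of 0.27, or 1.21-fold. The difference of ATP6V1A was of about the size of the probe-to-probe SD of its class (0.12). As large a difference in either direction was found for 47.8% of all genes measured on both arrays, and for 21.6% in the case of ATP6V1B2.

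The lowest difference in the sector was that of ATP6V1D, a subunit of the central stalk, from 779 to 642 (-0.29). The other stalk subunit, ATP6V1F, had equal signals of 20206 and 20302 (-0.00). ATP6V1H, which joins the stalks to the membrane sector, was at 0.01 and ATP6V1C1, also at that junction, at -0.10, with a second probe at -0.28. The outer stalk subunits ATP6V1E1 and ATP6V1G1 were at -0.01 and -0.17.

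Several subunits have a second gene with narrower tissue use, and their differences can be set beside those of the common form. ATP6V1G2, known mainly from neurons, went from 159 to 191 (0.26) where ATP6V1G1 went from 19358 to 17289. The gap between these differences was 0.43, with a combined probe-to-probe SD of 0.26. ATP6V1E2, known mainly from testis, went from 613 to 733 (0.25), and its second probe, from 57.6 to 68.2, gave 0.24. Its gap to ATP6V1E1 was 0.26, with a combined SD of 0.20. ATP6V1C2 differed by -0.15 and its gap to the brightest probe of ATP6V1C1 was -0.06, with a combined SD of 0.21. Against the second ATP6V1C1 probe, at -0.28, the gap would have the other sign. All 3 gaps were under 2 combined SDs. ATP6V1B1 and ATP6V1G3, forms known from kidney, were below the floor on both arrays.

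Of the 8 V0 sector genes, 5 were measured on both arrays, and 4 of these had differences below 0 (median -0.08, range -0.14 to 0.05). Genes of the brightest class, where all 5 lie, had a median of -0.06, so the sector sat close to that level. ATP6V0C, which encodes the proton-carrying ring subunit, went from 171260 to 162896 (-0.08), and ATP6V0B, a second ring subunit, from 39092 to 37996 (-0.05). ATP6V0A1, the subunit that forms the path of protons across the membrane, went from 9697 to 8885 (-0.13). These differences are of about the size of the probe-to-probe SD, which is 0.12 in this class.

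ATP6V0D1, which couples the ring to the stalk, gave 0.05 on its bright probe, from 5143 to 5372, and -0.27 on a dim one, from 66.0 to 55.2, so its direction was not settled by its probes. ATP6V0E1, a small membrane subunit, was at -0.14. ATP6V0A4, known from kidney, ATP6V0D2, known from osteoclasts and kidney, and ATP6V0E2 were below the floor on both arrays, and no difference is given for them. For the a, d and e subunits, ATP6V0A1, ATP6V0D1 and ATP6V0E1 were therefore above the floor on both arrays and their relatives ATP6V0A4, ATP6V0D2 and ATP6V0E2 on neither. Not every gene of the a subunit was analysed here, TCIRG1 being among those that were not, so its main form is not shown.

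The accessory genes were close to equal. ATP6AP1, a pump component that guides its assembly, went from 11241 to 11584 (0.03), and ATP6AP2, the prorenin receptor that also binds the pump, from 4987 to 4919 (-0.03). The related gene ATP6AP1L was dimmer, from 104 to 127, with a difference of 0.27 where the probe-to-probe SD is 0.23.

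Among the cathepsins, 10 of 14 were measured on both arrays, and 1 of them passed 1.5-fold. This was CTSH, an aminopeptidase of the papain-like cysteine cathepsins, which went from 1928 in HL60 to 3461 in R-HL60, a log2 difference of 0.84, or 1.78-fold, with a probe-to-probe SD of 0.14 in its class of signal. Only 1.61% of all genes measured on both arrays had as large a difference in either direction. CTSH rested on 1 probe. Its value ran from 0.75 to 0.89 over the other scalings tried and was 0.89 in the authors' normalized table. The floor and the mean of probes cannot alter a value that rests on 1 probe.

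The other cysteine cathepsins were within 1.3-fold where measured on both arrays. CTSS, which trims the invariant chain of HLA class II in antigen-presenting cells, was dim and went from 76.1 to 92.7 (0.28, SD of its class 0.23). CTSB and CTSL, broad lysosomal endopeptidases, went from 358 to 400 (0.15) and from 398 to 430 (0.10). CTSZ, a carboxypeptidase, was the lowest, from 226 to 186 (-0.29), with a second probe at -0.04. CTSK, the collagen-degrading protease of osteoclasts, was at -0.11. The 7 cysteine cathepsins measured on both arrays had a median of 0.10.

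CTSC, the dipeptidyl peptidase that activates the serine proteases of neutrophil granules, was equal on both arrays at 4768 (-0.01), and its further probes gave -0.05 and -0.24. Of its known substrates, ELANE went from 700 to 153 (-2.20) and PRTN3 differed by -0.80, while CTSG, the serine protease left out of the members, differed by -0.19. CTSW, known from cytotoxic lymphocytes, was above the floor in R-HL60 only, at 33.0 against 25.9, and at least 1.07-fold higher. CTSF, CTSO and CTSV were below the floor on both arrays. CTSV, whose raw signals of 3.67 and 1.67 lie far under the floors of 30.7 and 32.8, has no measured difference.

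The cathepsins that are not cysteine proteases were near 0. CTSD, the main aspartic protease of lysosomes, went from 1143 to 1098 (-0.07). CTSE, an aspartic protease of endosomes, was dimmer, from 135 to 157 (0.21, SD of its class 0.23). CTSA, the carboxypeptidase that protects beta-galactosidase and neuraminidase, went from 11515 to 11537 (-0.01), and its second probe also gave -0.01 after rounding to 2 decimals. Of its partners, named after their values were seen, GLB1 was at -0.05 and NEU1 went from 3919 to 3058 (-0.37).

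Within the LAMP family, LAMP5 was lower and the other measured genes were nearly equal. LAMP5, a relative of LAMP1 known from neurons and plasmacytoid dendritic cells, went from 6191 to 4598, a log2 difference of -0.44, or 1.35-fold lower, on 1 probe. As large a difference in either direction was found for 8.56% of all genes measured on both arrays. LAMP1 went from 48035 to 46078 (-0.07). LAMP2, which also serves in chaperone-mediated autophagy, gave 0.09, 0.14 and -0.04 on its 3 probes. LAMP3, a marker of mature dendritic cells, was below the floor on both arrays.

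The antisense transcripts were dim. LAMP5-AS1, just above the floor, went from 33.2 to 35.1 (0.07), and its sign changed with the scaling. ATP6V0E2-AS1 was at -0.16 on its brightest probe, and ATP6V1B1-AS1 was at least 1.20-fold lower in R-HL60. Neither sense partner, ATP6V0E2 or ATP6V1B1, was above the floor.

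Of the 7 members with several probes measured on both arrays, 5 had the same sign on all probes (ATP6V1C1, ATP6V1E2, CTSA, CTSC and CTSZ). In ATP6V0D1 and LAMP2 the signs differed. The same share over all genes was not counted, so these 7 do not show unusual agreement. CTSA and CTSC lay near 0 on their brightest probes and changed sign between scalings. In the authors' normalized table the CTSC probes were at 0.04, 0.004 and -0.22. The largest gap between probes of a member was 0.32, in ATP6V0D1. CTSH and LAMP5 had no second probe that could be compared.

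Members with the E-box had small differences. The 6 members with CACGTG that were measured on both arrays had differences from -0.17 to 0.05 and a median of -0.06, and the 17 measured members without it had a median of -0.01 and ran from -0.44 to 0.84. The 4 with TCACGTGA were ATP6V1G1 (-0.17), LAMP1 (-0.07), CTSA (-0.01) and ATP6V0D1 (0.05). The other 197 measured genes with TCACGTGA had a median of -0.07, beside -0.05 for 10294 without CACGTG. These medians are descriptions over genes of 2 arrays and carry no test.

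Of the MiT/TFE factors, MITF was lower in R-HL60 by a wide margin while TFEB and TFE3 were nearly equal on their brightest probes. MITF went from 211 to 18.0 on its brightest probe, which is below the floor in R-HL60, and was at least 6.46-fold lower. Adding 50 intensity units to every signal, which damps folds at low intensity, gave a bound of 3.16-fold, and the mean of all its probes one of 2.09-fold. A second MITF probe went from 89.2 to 6.52, and the remaining probe was below the floor on both arrays. TFEB was at -0.00 and TFE3 at -0.01 on their brightest probes, with second probes at 0.16 and 0.20. TFEC, dim at 52.6 and 38.6, was at -0.46 where the probe-to-probe SD is 0.28. The list of these factors and their regulators had 1 of 8 genes past 2-fold, which was MITF, against 1.08% of all genes. The list's median was -0.00 over the 7 measured on both arrays.

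Other lysosomal genes also had small differences. Of the 41 hydrolases and their cofactors, 37 were measured on both arrays with a median of 0.02. Past 1.5-fold, where 3.53% of all genes lay higher and 1.38% lower, was 1 of 39. This was GALC, which degrades galactosylceramide, from 149 to 47.9 (3.13-fold lower), while its other probe was below the floor on both arrays. With 50 units added it was 2.04-fold lower, and the mean of its probes was not above the floor. Named after their values were seen, the thiol reductase IFI30, which acts on antigens in the lysosome, went from 6866 to 9250 (0.42), and the carboxypeptidase SCPEP1 was at 0.42 and 0.61 on its 2 probes. HYAL1, a hyaluronidase, was at 0.50 close to the floor, at 33.3 and 47.5.

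The 22 measured lysosomal membrane and transport genes had a median of -0.06, with HGSNAT as the largest difference at -0.31 on its brightest probe. Its other probe, above the floor in R-HL60 only, had a log2 ratio of 0.56 in the other direction. SIDT2 was at 0.24 on its brightest probe and at 0.57 on a dimmer one, from 139 to 207. The 20 measured sorting genes had a median of -0.09, with SORL1 at 0.22. A further list of 12 holds genes of the Ragulator and Rag complexes, genes of mTORC1, which these tether to the lysosome, and RHEB. The median of that list was -0.09, with RRAGB at -0.29. Most genes of the membrane, sorting and Ragulator lists lie in the brightest class of signal or the next. All genes of those classes had medians of -0.06 and -0.05. With loess by signal, the median of each of these lists was -0.03. In these lists no gene was past 1.5-fold, against 3.53% of all genes higher and 1.38% lower. At such shares lists of this size hold few genes or none. CD68, of the membrane list, was not analysed here.

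Of 11 measured genes of pump assembly and regulation, with a median of -0.00, only the ubiquitin ligase gene RNF182 was past 1.5-fold, from 232 to 153 (-0.61, or -0.48 with 50 units added). At least 1.5-fold lower were 1.38% of all genes, and 3.53% were as much higher. DMXL2 and WDR7 encode the partner subunits of a complex that rejoins the V1 and V0 sectors. DMXL2 went from 301 to 437 (0.53) and WDR7 from 1200 to 1564 (0.37), both named after their values were seen. Their relatives and partners DMXL1 and ROGDI were at 0.07 and -0.09. VMA21, an assembly chaperone of the V0 sector, was at -0.26 on its brighter and 0.07 on its other probe. TCIRG1 and VMA12, also on this list, were not analysed here.

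Cathepsin inhibitors had a median of -0.06 over 7 measured genes, none past 1.5-fold, where 3.53% of all genes were higher and 1.38% lower. CSTA, a cytosolic inhibitor of cysteine cathepsins, had the largest difference, from 10976 to 13757 (0.32). CST7, which inhibits cathepsin C, was at 0.23, CSTB at -0.06 and the secreted inhibitor CST3 at -0.14. CST4 was not analysed here.

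**Figure D3:**
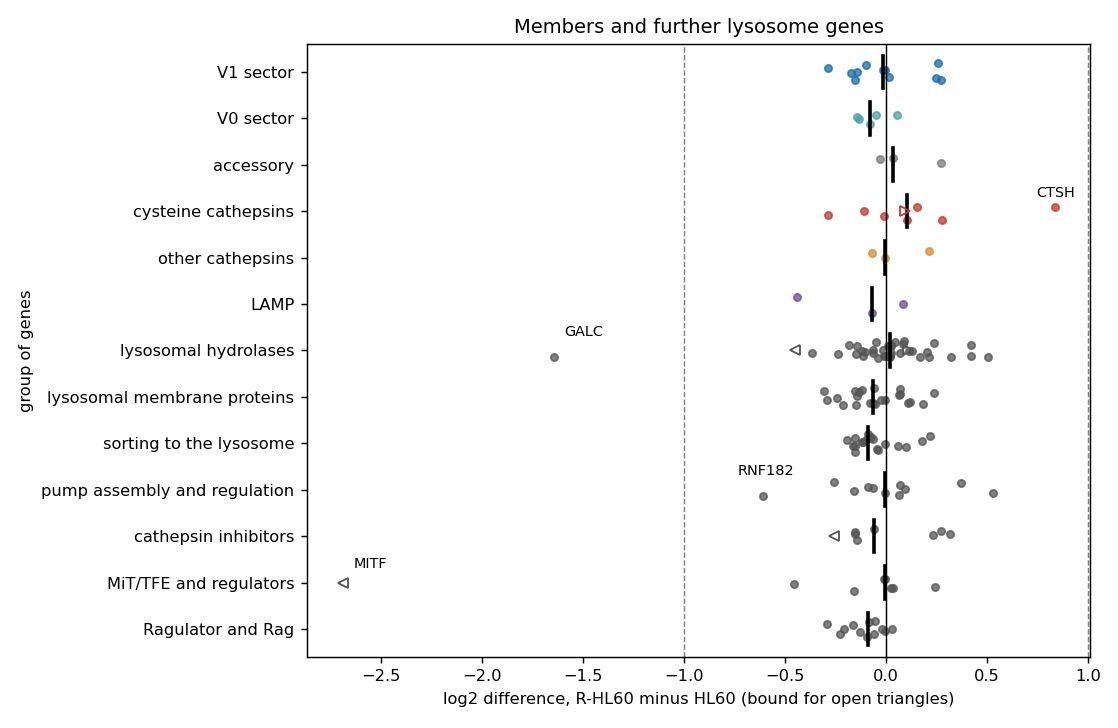
Log2 difference (R-HL60 minus HL60, horizontal axis) of members by role, in colour, and of further lysosome genes by list, in grey. The antisense members are not drawn. Points are genes above the floor on both arrays and thick bars are group medians. Open triangles are nonzero bounds for genes above the floor on 1 array, and dashed lines mark 2-fold. Every median lies between -0.09 and 0.10, with MITF and GALC beyond 2-fold.

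HL60 markers were present: all 7 promyelocytic markers were above the floor on both arrays. Their signals, mostly those of MPO and CTSG, summed to 812136 in HL60 and 722652 in R-HL60. All 7 differences were below 0, with ELANE at -2.20, PRTN3 at -0.80 and the others from -0.19 to -0.12. Of 5 monocyte and macrophage markers 3 were above the floor on both arrays, with summed signals of 458 and 424, MARCO on neither and MRC1 in R-HL60 only. The 5 T and B cell markers were above the floor on both arrays, at 6732 and 9297 in sum, with CD3D at 0.65. The epithelial markers summed to 812 and 870, with EPCAM and CDH1 below the floor on both arrays. Nearly all of this sum was KRT18, above the floor on both arrays at 807 in HL60 and 867 in R-HL60. Of the fibroblast markers COL1A1 and COL3A1 were below the floor on both arrays, DCN was above it in R-HL60 only (from 22.2 in HL60 to 37.7), and the list summed to 49 and 59. The part of other cell states in the CTSH and LAMP5 differences was not tested.

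Scaling changed the sign of members near 0 and left the larger differences in place. CTSH and LAMP5 kept their direction in all scalings tried, as did ATP6V1D and CTSZ below 0 and ATP6V1B2 above it. The floor cannot alter these values, and the mean of probes only that of CTSZ, which stayed below 0. ATP6V1F, CTSA and CTSC, among others, changed sign between scalings, and the median over members ran from -0.10 with a median shift to 0.04 with loess. No direction is claimed for them.

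**Figure D4:**
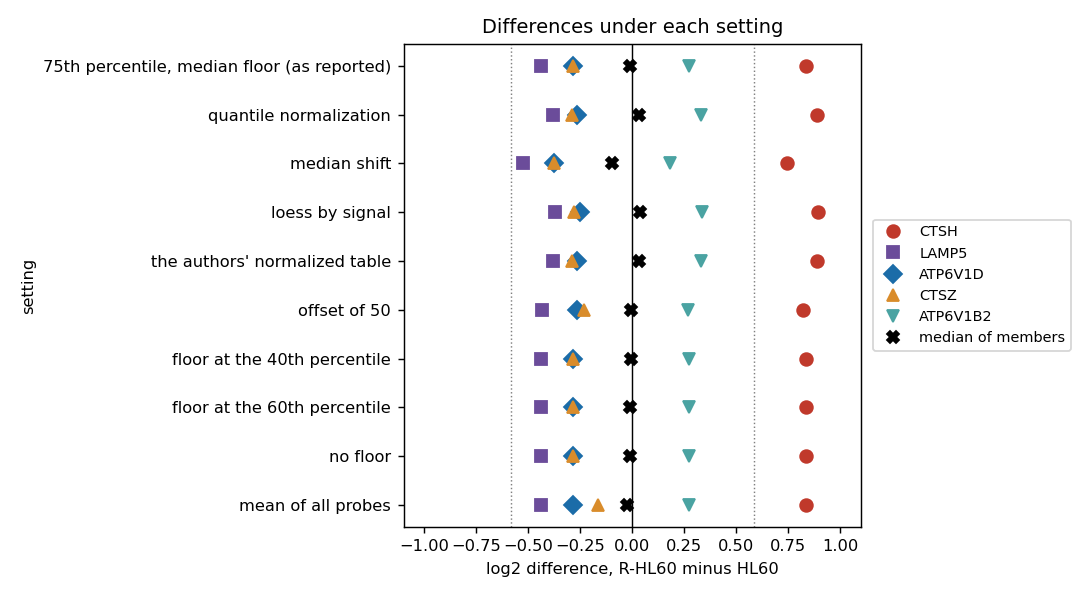
Log2 difference (R-HL60 minus HL60, horizontal axis) of 5 members and the median over all measured members under the reported setting and 9 others (vertical axis). Dotted lines mark 1.5-fold; CTSH stays between 0.75 and 0.89 and LAMP5 between -0.53 and -0.37. The floor settings, and the mean of probes for a gene with 1 probe, repeat the reported value of a gene by construction.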

How the data were processed

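RNA was labelled with Cy3 and hybridised to 1 array per line, and Agilent Feature Extraction 10.7.3.1 was used, per the submitters' processing notes. The files deposited for each array pair a gene name with 1 linear intensity, without a statement of how background was handled. A table of intensities normalized by the authors, by a method that is not stated, served as an alternative.

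Intensities were taken to log2 and each array's 75th percentile was subtracted. The floor was each array's median. The probe with the highest mean stood for a gene, and a gene above the floor on 1 array has a bound against the floor. Older symbols of 1 gene were updated with a GRCh38.p14 gene table (1567 of 43317 names); all 45 members were current symbols. Without replicates no test was run. Members and lists were chosen with earlier results of these data known. Named beyond the members were, from each further list, up to 4 genes past 1.5-fold or else the gene with the largest difference, plus MITF, TFEB, TFE3, TFEC, TCIRG1 and CTSG; other list genes were named after their values were seen. The steps were tested on simulated data. Alternatives were other scalings, floors, 50 units added to every signal and the mean of probes; those for MITF, GALC and RNF182 were added after seeing the data. Python 3.11.15, numpy 2.4.6, pandas 2.3.3, statsmodels 0.14.6 and matplotlib 3.10.9 were used.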

Additional observations from a re-analysis of the deposited data

How the results depend on the processing

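The count of members past 2-fold was 0, and that past 1.5-fold was 1 (CTSH), in all alternatives tried except the one without a floor. Without a floor 1 member (CTSV, lower) passed 2-fold and 5 passed 1.5-fold, the further ones being ATP6V0E2, ATP6V1B1, LAMP3 and CTSV, all with signals below the floor on both arrays. No median and none of 304 values of single members moved by over 0.19, the SD between probes of a gene, which is a wide measure for a median. The value of a single member cannot change with the floor, nor with the mean of probes where it has 1 probe. Such repeats are counted in the 304 and add nothing on how stable a value is. No paired analysis was possible because each line has 1 array, and no array could be left out. The number of arrays limits the precision: differences such as that of CTSH cannot be set against the spread between cultures.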

Other observations

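Transcripts named after a member without being one were mostly dim. Of 23 long non-coding transcripts with such names, 3 were above the floor on both arrays, 3 on 1 array and 17 on neither. The largest measured difference among them was that of lnc-ATP6V1E2-2, from 47.2 in HL60 to 86.6 in R-HL60 (log2 difference 0.87), next to 0.39 for lnc-ATP6AP1L-2 and -0.05 for lnc-CTSL2-2. The probe-to-probe SD is 0.28 at such low signals for lnc-ATP6V1E2-2. Of the 3 cathepsin L pseudogenes, CTSLP2 was above the floor, at 642 and 708 (0.13), close to the 0.10 of CTSL; whether its probe also binds CTSL transcripts was not tested.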
